A study of Rattus norvegicus with 6 samples.

Results

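The genes described are 10 members of the Notch pathway: the receptor genes Notch1, Notch2 and Notch3, the ligand genes Jag1, Jag2 and Dll1, the nuclear factor gene Rbpj, and the target genes Hes1, Hey1 and Heyl. They were taken by symbol from the count files of 6 RNA-seq libraries, and all 10 were found among 18237 rows. The libraries come from cells taken from embryonic rat myocardium, labelled NRVM, that had been given a non-targeting control siRNA (siNT, n = 3) or an siRNA against the metallothionein gene Mt2 (siMt2, n = 3). Metallothioneins are small proteins that bind zinc and copper, and the comparison asks which transcripts differ when this one is targeted, in a project on eIF3m and nitrative injury of the heart. All 6 libraries share the medium, DMEM with fetal bovine serum, and a protocol text that also names dexamethasone, isobutylmethylxanthine and insulin; the sources used here do not say whether these cells received those agents. The labels do not say whether replicates were separate cultures, so p-values reflect how far these libraries scatter, and that scatter may be technical only.

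Notch receptors are single-pass proteins at the cell surface. A Jagged or Delta ligand on a neighbouring cell binds the receptor and pulls on it, which exposes it to an ADAM protease and then to gamma-secretase. The freed intracellular domain enters the nucleus, joins the DNA-binding protein encoded by Rbpj and recruits Mastermind coactivators; without it, Rbpj can hold corepressors at the same sites. Hes and Hey genes, which encode repressors of the basic helix-loop-helix class, are the best known direct targets. In the developing heart the pathway acts in valve and chamber formation and in vessel walls, and in skeletal myoblasts it restrains differentiation.

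Library totals ran from 2859759 to 6817777 counts, the lowest being siMt2 replicate 3, so 3 counts in a library equalled 0.437 to 1.05 CPM (counts scaled to library size with TMM factors). The siRNA target Mt2a was not measurably lower: it stood at 90.4, 169 and 93.0 CPM with siNT and 70.4, 87.0 and 142 CPM in those labelled siMt2 (edgeR adjusted p = 0.631). The exact two-sided permutation p for Mt2a was 0.5, where 0.1 is the smallest possible, and groups are therefore called by their labels. The labelled cell type was poorly represented. Of 12 cardiomyocyte markers, 9 had fewer than 10 counts over all libraries or were not analysed here, Myh6, Actc1 and Tnni3 among them, although Tnnt2 stood at 27.1 ± 1.37 and 54.3 ± 5.17 CPM (SD, n = 3 each, as throughout).

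Of the 10 members, 6 had enough counts to be tested: Notch2, Notch3 and Rbpj were higher in the libraries labelled siMt2, Jag1 was lower, and Notch1 and Hes1 did not pass. The other 4, Jag2, Dll1, Hey1 and Heyl, had between 2 and 15 counts over all 6 libraries. Changes of this kind were common. Of 11726 genes tested, 50.9% passed an edgeR adjusted p of 0.05, 25.8% of them upward and 25.1% downward as shares of all genes tested, and the count of 4 called of 6 is not read as a result about the members. The median absolute log2 fold change of all genes tested was 0.33, and the median signed one was 0.00043.

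**Figure D1:**
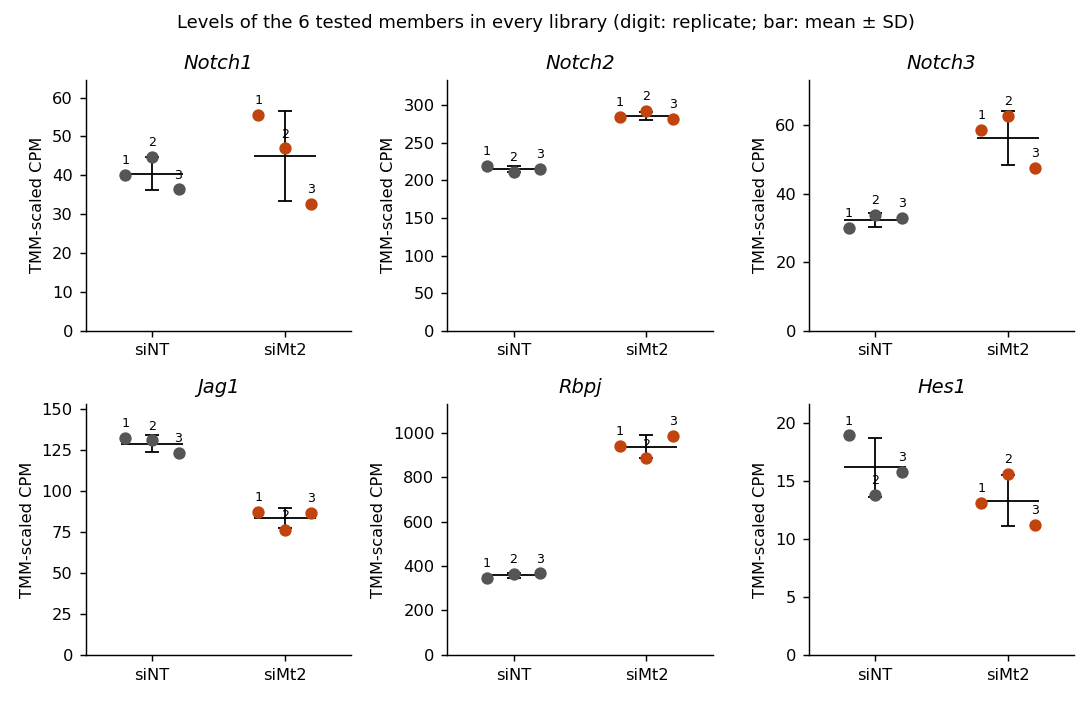
TMM-scaled CPM (vertical axes, each from 0) of the 6 tested members in every siNT and siMt2 library, with the replicate number at each point and a bar for the mean ± SD of 3 libraries. The groups are apart for Notch2, Notch3, Jag1 and Rbpj, and overlap for Notch1 and Hes1, where siMt2 replicate 3 is the lowest point of both panels.

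Rbpj, the DNA-binding factor on which all Notch receptors converge, had the largest difference of the 6 tested members. Its level was 345, 363 and 367 CPM with siNT and 941, 884 and 986 CPM with siMt2. The groups lay far apart, with little scatter within either. The means were 358 ± 11.8 and 937 ± 51.0 CPM, a 2.61-fold rise (95% interval 2.45 to 2.79, log2 fold change 1.39, SE 0.05, edgeR adjusted p = 2.3e-15). Among all genes tested, 354 had a larger rise than Rbpj, and 18 had a smaller p. Near-identical copies could share its reads, since the sources used here do not say how reads matching several genes were counted. Rbpjl2, which RefSeq lists as a pseudogene with the synonym Rbpsuh, took 16 counts in the siNT and 36 with siMt2, 0.276% of the total for Rbpj. The paralog Rbpjl had 6 counts in all.

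Notch2, a receptor used widely in mesenchymal and vascular cells, rose by about the same amount in every siMt2 library. It stood at 220, 211 and 215 CPM with siNT and at 285, 292 and 282 CPM with siMt2. Values within a group lay close together, and the groups did not overlap. This is a 1.33-fold rise (95% interval 1.24 to 1.43, log2 fold change 0.41, SE 0.05, edgeR adjusted p = 5.55e-07).

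Notch3, the receptor typical of vascular smooth muscle and pericytes, rose further on the log scale. Its levels were 30.1, 33.8 and 33.0 CPM with siNT and 58.5, 62.7 and 47.4 CPM with siMt2. The lowest siMt2 value, in replicate 3, was still above all siNT values. The rise was 1.76-fold (95% interval 1.50 to 2.07, log2 fold change 0.82, SE 0.11, edgeR adjusted p = 4.05e-06).

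Notch1, the receptor best known from endothelium and lymphocytes, did not pass. It lay at 40.2, 44.8 and 36.4 CPM with siNT and at 55.4, 46.9 and 32.6 CPM with siMt2. The siMt2 values enclosed the siNT values: replicates 1 and 2 lay above all of them and replicate 3 below. The log2 fold change was 0.21 (SE 0.15, 95% interval -0.12 to 0.54, edgeR adjusted p = 0.268), which spans 0.923 to 1.45 times the level with siNT. That result turned on siMt2 replicate 3, where Notch1 had 93 counts, with a counting error of 10.4%. Without that library the log2 fold change was 0.37 and passed (edgeR adjusted p = 0.0035), whereas without siMt2 replicate 1 it was 0.017 (adjusted p = 0.939).

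The receptors were also set against each other within each library, where depth and gene length cancel in the change of a ratio. Notch3 counts per Notch2 count were 0.137, 0.160 and 0.153 with siNT and 0.206, 0.214 and 0.168 with siMt2. Each siMt2 ratio was above each siNT ratio, with a mean rise of 0.38 on the log2 scale. Notch3 per Notch1 went from 0.749, 0.755 and 0.908 to 1.05, 1.34 and 1.45, without overlap and with a mean rise of 0.67. For Notch1 per Notch2 the groups overlapped and the mean difference was -0.29. The exact two-sided permutation p was 0.1, 0.1 and 0.4 for these 3 pairs (0.15, 0.15 and 0.4 after Benjamini-Hochberg adjustment over them), and 0.1 is the smallest that 3 against 3 libraries allow. This permutation test therefore could not reach 0.05 for any pair, and no other test of the ratios was run.

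**Figure D2:**
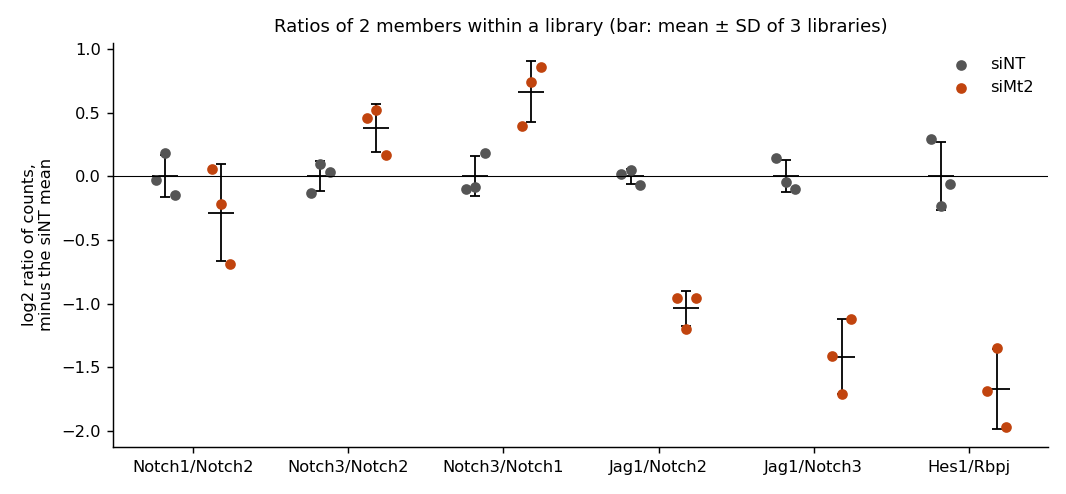
Log2 ratio of the counts of a pair of members in each library, minus the siNT mean of that pair (vertical axis), for siNT and siMt2 libraries, with a bar for mean ± SD of 3 libraries. The 3 receptor pairs on the left were tested; the 3 pairs on the right were chosen after their values were seen and lie 1.04 to 1.67 lower with siMt2.

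Jag1, the Jagged ligand prominent in vessel walls and the outflow tract, was the one ligand well measured here, and it fell. Its levels were 132, 131 and 123 CPM with siNT and 87.3, 76.1 and 86.7 CPM with siMt2. All siMt2 values lay below all siNT values. The siMt2 level was 0.650 times the siNT level (95% interval 0.587 to 0.720, log2 fold change -0.62, SE 0.07, edgeR adjusted p = 3.72e-07). Jag1 differed in the direction opposite to Notch2 and Notch3, and the ratios give this library by library. Jag1 counts per Notch2 count were 0.603, 0.618 and 0.570 with siNT and 0.307, 0.260 and 0.307 with siMt2, a mean of 0.487 times the siNT ratio. Against Notch3 the ratio was 0.374 times that in siNT. Both pairs were chosen after their values were seen and were not tested.

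Jag2 and Dll1, the other ligand members, were near the detection limit. Jag2 had 0 counts in each siNT library, which allows a level of up to 0.226 CPM over the group (exact 95% interval). With siMt2 it had 2, 4 and 0 counts, or 0.432 CPM when pooled. The exact 95% interval of that pooled Jag2 level, 0.158 to 0.940 CPM, reaches below the limit for siNT. Overlap of separate intervals does not decide whether the groups differ, and these cover counting error only. Dll1 had 0, 0 and 2 counts with siNT and 7, 1 and 5 with siMt2. Pooled, this is a ratio of 7.64, with an exact 95% interval from 1.73 to 69.8 that covers counting error only and not the spread between libraries. With no filter on low counts Dll1 passed narrowly (edgeR adjusted p = 0.0497), Jag2 did not (0.0685), and DESeq2 gave no adjusted p for either (unadjusted p = 0.0552 and 0.131). Such counts are too few to order the siMt2 libraries.

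**Figure D3:**
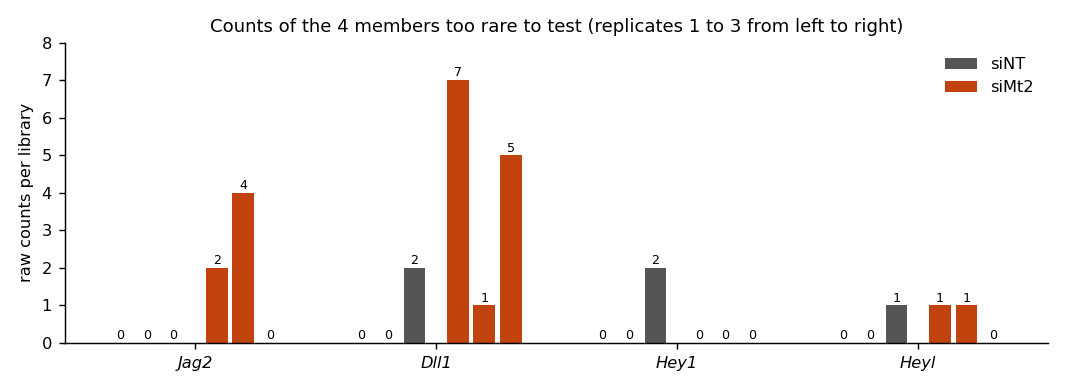
Raw counts (vertical axis, from 0) of Jag2, Dll1, Hey1 and Heyl in the 3 siNT and 3 siMt2 libraries. No bar exceeds 7 counts, in libraries of 2859759 to 6817777.

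Among the targets, Hes1 was the member with usable counts. Its promoter is shown because it is the textbook case of a Notch-driven promoter and its level can be set beside that of Rbpj. The stretch runs from 250 bases before to 50 after the RefSeq start on GRCr8, minus strand, chr11:84212996-84213295. Capitals mark TGGGAA, the core letters of the Rbpj recognition site, searched on both strands:

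Hes1: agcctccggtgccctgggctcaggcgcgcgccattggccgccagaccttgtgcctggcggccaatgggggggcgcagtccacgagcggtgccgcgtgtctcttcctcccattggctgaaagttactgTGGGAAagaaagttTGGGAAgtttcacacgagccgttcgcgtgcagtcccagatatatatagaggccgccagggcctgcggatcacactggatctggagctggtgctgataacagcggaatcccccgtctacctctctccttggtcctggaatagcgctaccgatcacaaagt

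Hes1 held 2 matches, starting 123 and 109 bases before the start and separated by 8 bases, both reading in the direction of transcription. Only this run of letters was searched, so Rbpj sites spelled otherwise are not marked. The 2 matches are not identified here as the known Rbpj sites of this promoter. Of 33469 RefSeq windows of this length, 25.7% held at least 1 match and 3.85% at least 2. Of the 9 members with a window, 4 held a match: Hes1, Dll1, Notch3 and Rbpj. Dll1 and the upstream window of Rbpj held 2 each, on opposite strands, and the Notch3 match lay 42 bases after the start. Windows of Notch1, Notch2, Jag1, Jag2 and Heyl held none, which says only that these letters are not in these stretches. Rbpj has a pair of overlapping windows in the table; the upstream one (chr14:61615389-61615688, GRCr8, minus strand) is printed to set the factor's own promoter beside that of its target, with TTCCCA in capitals where TGGGAA lies on the opposite strand:

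Rbpj: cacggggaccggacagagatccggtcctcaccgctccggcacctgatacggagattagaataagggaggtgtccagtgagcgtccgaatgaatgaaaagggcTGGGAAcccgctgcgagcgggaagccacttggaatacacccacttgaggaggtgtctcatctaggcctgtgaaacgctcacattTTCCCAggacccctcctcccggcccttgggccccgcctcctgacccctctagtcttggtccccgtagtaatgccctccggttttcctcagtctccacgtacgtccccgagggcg

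A match is a run of letters and was not tested for binding. Members with and without a match were found among those that rose: Notch3 and Rbpj held one, Notch2 did not.

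Hes1 itself did not pass the test. It lay at 18.9, 13.8 and 15.7 CPM with siNT and at 13.1, 15.6 and 11.2 CPM with siMt2. The groups overlapped, with siMt2 replicate 2 above siNT replicate 2. The log2 fold change was -0.27 (SE 0.18, 95% interval -0.65 to 0.097, edgeR adjusted p = 0.21), an interval from 0.639 to 1.07 times the siNT level, so a rise of the size seen for Rbpj lies outside it. Hes1 counts per Rbpj count were 0.0548, 0.0381 and 0.0429 with siNT and 0.0139, 0.0176 and 0.0114 with siMt2. The mean ratio in siMt2 was 0.315 times that in siNT, a pair chosen after its values were seen and not tested. The smallest Hes1 count was 32, with a counting error of 17.7%, so changes smaller than its interval were not detectable at this depth.

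Hey1 and Heyl, the Hey-family repressors that respond to Notch in vessels and heart, were barely detected. Hey1 had 2 counts in siNT replicate 3 and 0 in every other library, and 0 counts in siMt2 allow up to 0.265 CPM over that group (exact 95% interval). Heyl had 1 count in siNT replicate 3 and in each of siMt2 replicates 1 and 2. No fold is given for either, because both groups are at or under 3 counts. Hey2, a pathway gene outside the members, had 8 and 4 counts, and the feedback inhibitor gene Nrarp 25 and 29.

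Genes that act on the same pathway were taken from lists by role. Of 90 such genes, 84 were in the counts and 74 could be tested, of which 15 were higher and 31 lower in siMt2 and 28 did not pass. The share called was 62.2%, beside 50.9% of all genes tested, and the median log2 fold change was -0.07. No list was tested as a set, and the counts by list are not read as results about the lists.

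Of 8 genes for receptor cleavage tested, 5 were lower and 0 higher. Of all genes tested, 25.1% were lower, 25.8% higher and 50.9% called in either direction. The median log2 fold change of the 8 was -0.31, and the count is not read as a result about the group. Ncstn, the gamma-secretase subunit nicastrin, fell from 305 ± 1.15 to 214 ± 8.18 CPM (difference -0.52 on the log2 scale, SE 0.05). Adam17 (-0.73, SE 0.07) and Adam10 (-0.50, SE 0.09), the sheddases that make the first cut, were lower too. These 3 had an edgeR adjusted p of at most 0.000115.

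Genes by which the sending cell ubiquitinates and takes up its ligand were lower in 3 of 5 cases and higher in 0. Of all genes tested, 25.1% were lower, 25.8% higher and 50.9% called in either direction. This count too is not read as a result about the group. Mib1, the ubiquitin ligase that acts on Jagged and Delta, fell from 68.9 ± 4.91 to 40.7 ± 3.50 CPM (difference -0.77 on the log2 scale, SE 0.10), Mib2 from 91.0 ± 11.2 to 43.6 ± 10.0 CPM (-1.04, SE 0.14), and the epsin gene Epn1 fell too (-0.70, SE 0.14). Each of these 3 had an edgeR adjusted p of at most 0.00307.

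Glycosylation genes went both ways, 1 higher and 2 lower of 5, beside 25.8% and 25.1% of all genes tested. The fringe gene Lfng, which modifies receptors and shifts their response between ligands, rose from 43.9 ± 1.48 to 58.4 ± 8.29 CPM (difference 0.43 on the log2 scale, SE 0.10), while the related Rfng fell (-0.57, SE 0.13). Pofut1, which adds the O-fucose that fringe enzymes extend, fell (-0.46, SE 0.13), but not after thinning (-0.25, edgeR adjusted p = 0.316). Of 10 turnover and inhibitor genes, 3 were higher and 2 lower, beside the same shares of all genes tested. The deltex genes Dtx3l (-0.74, SE 0.15) and Dtx2 (-0.65, SE 0.14) fell, and Aak1, a kinase of endocytic adaptors, rose (0.25, SE 0.05). Dtx4, also higher (0.39, SE 0.13, edgeR adjusted p = 0.0204), lost its call without siNT replicate 1, siNT replicate 2 or siMt2 replicate 1 (0.0517, 0.115 and 0.0568), and by DESeq2 (0.0935). Numb, Itch and Fbxw7 did not pass, with log2 fold changes of -0.07, -0.09 and 0.04; they are named after their values were seen.

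Of 16 genes for corepressors that act with Rbpj, 10 were lower and 1 higher, with a median log2 fold change of -0.37. Of all genes tested, 25.1% were lower, 25.8% higher and 50.9% called in either direction. Spen, which bridges Rbpj to corepressors, fell from 174 ± 4.43 to 96.8 ± 10.5 CPM (-0.83, SE 0.07). Kdm5a, a histone demethylase that Rbpj recruits, fell from 275 ± 9.76 to 175 ± 2.75 CPM (-0.66, SE 0.05), and L3mbtl3 from 48.3 ± 3.10 to 20.1 ± 1.97 CPM (-1.24, SE 0.11). The Groucho-family gene Tle4 fell by 0.56 (SE 0.09), and the gene that rose was the histone deacetylase gene Hdac1 (0.37, SE 0.06), named after its value was seen.

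Coactivators were lower in 4 of 8 cases and higher in 1, where 50.9% of all genes tested passed in either direction. Maml1 and Maml2, which encode Mastermind proteins of the activating complex, moved apart: Maml1 fell from 91.6 ± 2.74 to 65.9 ± 1.71 CPM (difference -0.48 on the log2 scale, SE 0.08) and Maml2 rose from 28.2 ± 1.68 to 45.0 ± 1.86 CPM (0.68, SE 0.11). The acetyltransferase genes Kat2a (-0.63, SE 0.09) and Ep300 (-0.33, SE 0.06) fell. The edgeR adjusted p of the corepressor and coactivator genes named was at most 0.000121.

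**Figure D4:**
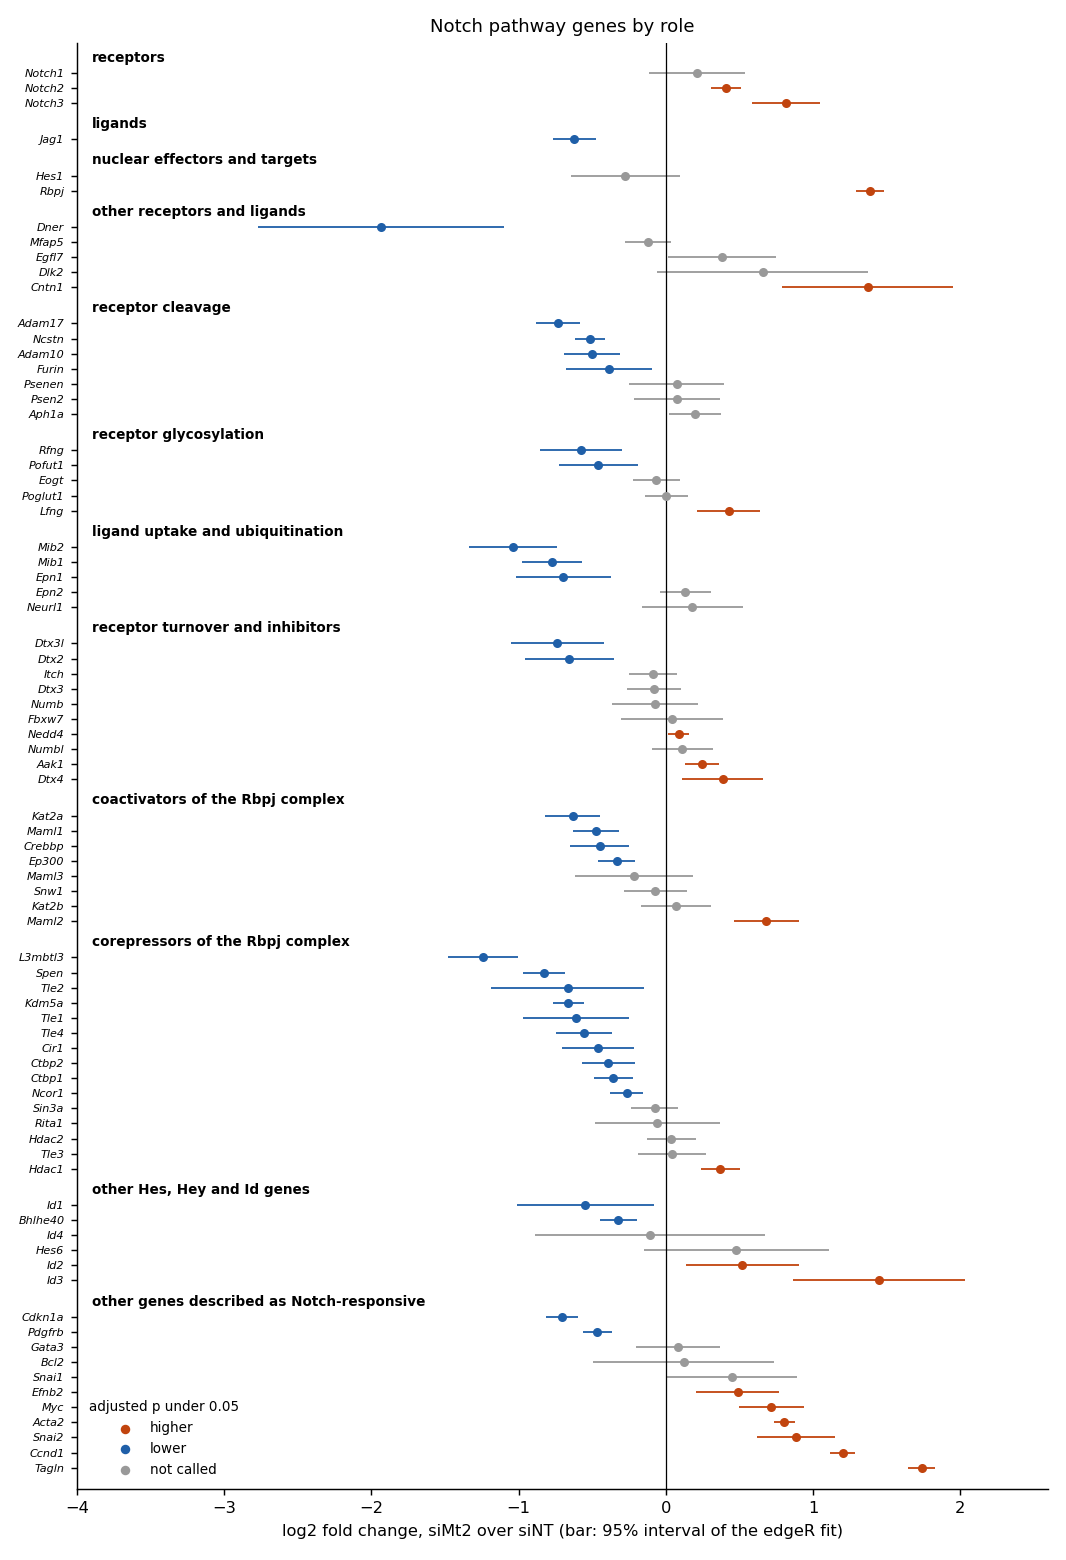
Log2 fold change, siMt2 over siNT, with 95% interval (horizontal axis) for the tested Notch pathway genes reported here, grouped by role, with colour for the edgeR call. Members are the first 3 groups. Called genes of the cleavage and ligand-uptake groups lie left of 0, those of the corepressor group do so except Hdac1, and Rbpj lies far to the right at 1.39.

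Of 5 less typical ligands and receptors tested, 1 rose and 1 fell, beside 25.8% and 25.1% of all genes tested. Dner, a transmembrane protein described as a Notch ligand, fell from 5.74 ± 1.40 to 1.54 ± 0.752 CPM (difference -1.94 on the log2 scale, SE 0.40, edgeR adjusted p = 0.000428). Cntn1, an adhesion protein also described as one, rose from 2.96 ± 0.119 to 7.56 ± 0.890 CPM (1.37, SE 0.28, adjusted p = 0.000349). Notch4, Dll3 and Dll4 had 13, 22 and 4 counts in all. Named after their values were seen, Mfap5 (100.9 ± 4.57 and 92.6 ± 8.07 CPM, edgeR adjusted p = 0.183) and Egfl7 (14.9 ± 2.14 and 18.7 ± 4.23 CPM, 0.0738) were the most abundant of the list and did not pass.

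Of 6 other Hes, Hey and Id genes tested, 2 rose and 2 fell, beside 25.8% and 25.1% of all genes tested. Id3, which encodes an inhibitor of basic helix-loop-helix factors, rose from 21.0 ± 0.810 to 55.1 ± 18.3 CPM (difference 1.45 on the log2 scale, SE 0.24), with siMt2 values of 70.3, 60.3 and 34.8 CPM, and Bhlhe40 fell (-0.32, SE 0.06). Id2 was higher (0.52, SE 0.18, edgeR adjusted p = 0.0237) and Id1 lower (-0.55, SE 0.22, adjusted p = 0.0469). Both calls were weak. Without siNT replicate 2 they ended (adjusted p = 0.0576 for Id2 and 0.2 for Id1), as they did with siMt2 replicate 1 left out (0.0646 and 0.0521), with siMt2 replicate 3 left out (0.0528 and 0.132) and by DESeq2 (0.133 and 0.141). The Id2 call also ended without siNT replicate 3 (0.0899), and the Id1 call without siNT replicate 1 (0.0688) or siMt2 replicate 2 (0.0617). The Id1 call ended as well with upper quartile scaling (0.0665), a stricter filter (0.0504), limma-voom (0.0631) and thinning (0.271). It held in 4 of 14 other settings. Of 11 further genes described as Notch-responsive in other cells, 6 rose and 2 fell, beside 25.8% and 25.1% of all genes tested. They include Tagln (1.74, SE 0.04), Ccnd1 (1.20, SE 0.04), Acta2 (0.81, SE 0.03) and Cdkn1a (-0.71, SE 0.05), which other pathways also control; Acta2, Tagln and the lower Pdgfrb are also in the smooth muscle and pericyte list.

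Markers of some cell types that use Notch differed between the groups, while the skeletal myoblast sums overlapped. Of 9 smooth muscle and pericyte markers, 8 were tested, 6 rose and 1 fell, beside 25.8% and 25.1% of all genes tested. Their summed level was 2517 to 2562 CPM in siNT and 4328 to 4413 CPM in siMt2, and Rgs5 was not analysed here. Most of that sum was Acta2 (1497 ± 32.1 and 2618 ± 39.0 CPM) and Tagln (329 ± 8.68 and 1099 ± 41.7 CPM). Myh11 stood at only 5.43 ± 1.50 and 11.5 ± 1.53 CPM, Pdgfrb was the marker that fell, and Cspg4 did not pass (edgeR adjusted p = 0.656). Of 8 fibroblast markers, 6 were tested and 5 rose, beside 25.8% of all genes tested, and Pdgfra had under 10 counts. Their sums were 5332 to 5484 and 7098 to 10840 CPM, most of it Col1a1 (4686 ± 167 and 7769 ± 1551 CPM). Col1a2 did not pass and lay at 326, 1147 and 237 CPM with siMt2. Dcn and Lum, among those that rose, had 9 and 7 counts in siNT and 41 and 44 in siMt2. Endothelial markers summed to 76.2 to 85.3 and 33.3 to 40.9 CPM, nearly all of it Eng, while Tie1 and Erg had under 10 counts and Pecam1, Cdh5, Kdr, Emcn and Cldn5 were not analysed here. Skeletal myoblast markers summed to 109 to 123 and 106 to 155 CPM. Most of it was Cdh15, which did not pass (92.3 ± 4.99 and 110 ± 27.6 CPM, edgeR adjusted p = 0.252). The muscle regulator gene Myod1 rose from 16.7 ± 0.223 to 23.0 ± 0.857 CPM (difference 0.46 on the log2 scale, SE 0.14, edgeR adjusted p = 0.00834). Myog, which drives differentiation, fell from 5.60 ± 1.99 to 1.93 ± 0.485 CPM (-1.47, SE 0.37, adjusted p = 0.00238). Myf6, Chrna1 and Myh3 had 2, 12 and 26 counts in all, and Myf5, Pax7 and Mymk were not analysed here. Leukocyte markers summed to 23.1 to 28.0 and 14.8 to 18.1 CPM, Schwann cell and neuron markers to 5.96 to 7.49 and 14.4 to 18.9 CPM, and epicardial markers to 139 to 147 and 149 to 155 CPM. The leukocyte sum was nearly all Cd14, with Ptprc and Aif1 at 2 counts each in all, and the epicardial sum joins Msln, which rose from 32.2 to 61.1 CPM (edgeR adjusted p = 7.3e-07), and Tbx18, which fell from 111 to 89.9 CPM (0.000573). The part of these markers in the Notch results was not tested, and in bulk RNA fewer cells of a type and less RNA per cell cannot be told apart.

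The calls of the members held under most other settings. Of the 6 tested, Notch2, Notch3, Jag1, Rbpj and Hes1 kept their side of the threshold and their direction in 14 of 14, and Notch1 in 13. The groups did not overlap for 4 of the 6, beside 57.6% of all genes tested.

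**Figure D5:**
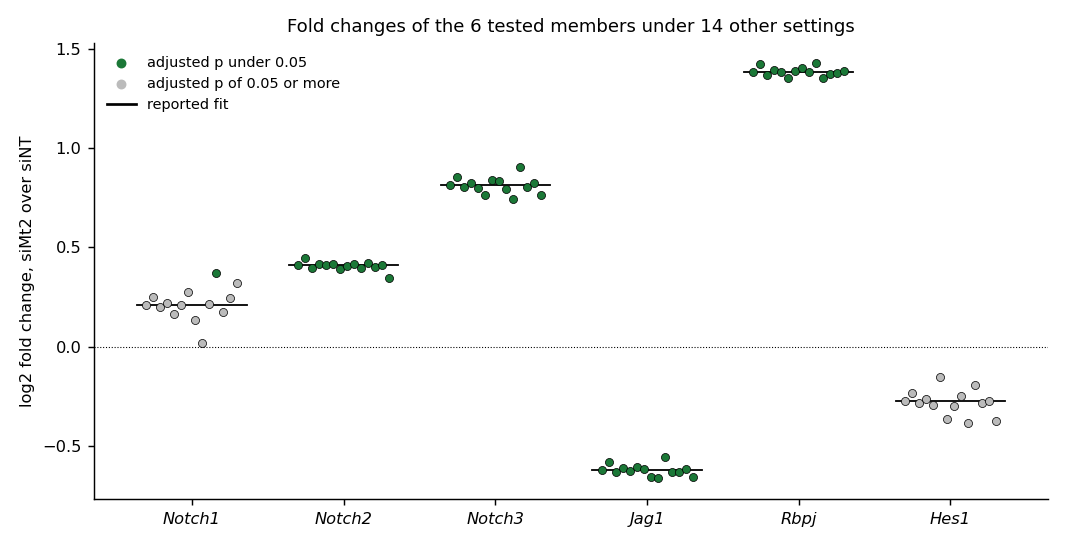
Log2 fold change, siMt2 over siNT (vertical axis), of the 6 tested members under 14 other settings (points, green where the adjusted p was under 0.05) and in the reported fit (line). The points of Rbpj lie between 1.35 and 1.43, and those of Notch1 between 0.017 and 0.37, with 1 of them, without siMt2 replicate 3, past the threshold.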

How the data were processed

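RNA of 6 libraries was sequenced after SMARTer mRNA library preparation, per the labels' protocols. The submitters' processing notes name the build rn6 and the tools featureCounts, HISAT2 2.2.1, Trimmomatic 0.40, DESeq2 and limma, while settings and strandedness were not stated. The authors deposited raw whole-number counts per gene symbol, with no normalization. Spreadsheet dates replaced 25 gene names (0.260% of counts); they were brought to 1 form, stayed in the fit and are not named.

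Counts were fitted in R 4.3.3 with edgeR 4.0.16: filterByExpr (minimum count 10), TMM scaling, robust quasi-likelihood test (two-sided), Benjamini-Hochberg adjustment over 11726 genes, threshold 0.05. Standard errors and intervals derive from the F statistic. The procedure was also run on simulated counts. Far fewer genes differed there than were called here, and by more than the median change here, so error rates under the present conditions were not checked. Intervals of pooled counts are exact and cover counting error only. No 2 libraries agreed within sampling noise. The median chi-square over genes, divided by the median under sampling noise alone, was 1.58 to 2.30 within groups and 8.55 to 12.2 across groups.

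The 10 members, the gene lists and the rules were chosen with earlier results of these data known. All members are named, and of each pathway list up to 4 genes with the smallest adjusted p under 0.05; other names are marked. Some items that the rule or the lists hold are not reported here. Promoter windows are RefSeq's, on GRCr8. Alternatives were scaling by DESeq2 size factors or the upper quartile, omitting the filter, a stricter filter (all libraries of 1 group at 10 counts or more, mean CPM 1 or more), a replicate block, leaving out each library, DESeq2 1.42.0, limma-voom (limma 3.58.1), and thinning to the smallest library.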

Additional observations from a re-analysis of the deposited data

How the results depend on the processing

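Between 3 and 4 members were higher and 1 lower under each of the 14 alternatives; the fourth was Dll1 with no filter and Notch1 without siMt2 replicate 3. Of the 32 other pathway genes that the naming rule picked, 27 stayed called under every alternative that gave an adjusted p and 0 changed direction. Other pathway genes higher numbered 12 to 18, and those lower 27 to 31. Upper quartile scaling shifted the all-gene median to 0.039 on the log2 scale and ended the call of Id1 (edgeR adjusted p = 0.0665). The replicate numbers were not taken as pairs, because the labels do not say what same-numbered libraries share. In a separate check, same-numbered libraries of the groups did not deviate together (correlations 0.0019, -0.055 and 0.033). With the replicate number as a block, 2968 genes were higher and 2929 lower in place of 3025 and 2945, and Notch1 stood at 0.16 (edgeR adjusted p = 0.27). Depth limits Jag2, Dll1, Hey1 and Heyl most and Hes1 in part; for Notch1 the siMt2 SD (11.5 CPM on a mean of 45.0) was larger than its counting error.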

Other observations

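In siMt2 replicate 3, the library with the fewest counts, 4 of the 6 tested members were at the lowest level of the siMt2 libraries and 1, Rbpj, at the highest. Of 74 other tested pathway genes, 48.6% were lowest there and 36.5% highest, beside 36.1% and 41.2% of 11707 tested genes whose row name is written alike in all siMt2 files.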
